A study of Mus musculus with 18 samples.

Results

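Ripk1 was 1 of 76 genes targeted in a pooled CRISPR screen that asked which gene losses change how mouse tumor cells fare under IgA-dependent neutrophil attack, with and without the inositol kinase ITPK1. It was represented by 3 of 252 single guide RNAs (sgRNAs); 24 of the 252 were non-targeting controls. The values below come from every sgRNA listed under the gene name Ripk1, in all 18 libraries. The tumor cells were sensBa/F3, cells of the interleukin-3-dependent mouse pro-B line Ba/F3. The library had been transduced, in the lenti-Guide-Puro vector, into ITPK1-WT cells and into ITPK1-KO cells, which were a pool of 6 knockout clones without lentiviral integration. After 10 days of culture both populations were injected together into the peritoneum of 8 mice transgenic for the human IgA receptor hCD89, at 20000000 cells per mouse. Mice 1 to 4 received vehicle (PBS) and mice 5 to 8 received anti-hHer2 IgA, and the cells were recovered 16 hours later. This gave 16 recovered libraries, 4 per background and arm, and 1 library per background from cells kept before injection. The age and strain of the mice and the promoter of the hCD89 transgene are not given in the sources used here.

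RIPK1 is a kinase and scaffold recruited to tumor necrosis factor receptor 1 and related death receptors. In the receptor complex its ubiquitin chains serve as a platform for survival signaling, and once those chains are removed it can enter a complex with FADD and caspase-8 that drives apoptosis, or with RIPK3 and MLKL that drives necroptosis. Loss of RIPK1 can therefore sensitize or protect a cell, depending on the cell type and the stimulus.

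The sgRNAs are shown because the gene-level values rest on these 3 alone and share 1 target. They are written 5′ to 3′, with the 12 bases nearest the PAM, which tolerate mismatches least, in capitals.
Ripk1 sg-1: cagactgaGACACAGTCGAG
Ripk1 sg-2: cctgaattTGACCTGCTCGG
Ripk1 sg-3: aatccttgAGTACTGTCCAA
No other sgRNA of the library was near-identical to them: sg-1, sg-2 and sg-3 differed from the closest other sgRNA at 9, 8 and 9 of 20 positions. Their GC content was 55%, 55% and 40%, against a library median of 50%. Their positions within the gene were not analysed here, and neither were their cutting efficiency and the loss of RIPK1 protein.

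Each library held between 317564 and 808586 sgRNA reads, of which 3972 to 9291 were from Ripk1. The reads carry no molecular identifiers, so counting intervals cover counting error only. Between 657000 and 2000000 cells were sorted per recovered library. This places an estimated 7460 to 27133 cells carrying a Ripk1 sgRNA behind each sum of the 3 sgRNAs. The counting error of that sum was 0.607% to 1.16% from cell number and 1.04% to 1.59% from read number. A single sgRNA had fewer cells and reads, and so a larger counting error. Several features of the design run alongside the comparisons. The number of cells sorted was 2000000 in every vehicle library and in both libraries of IgA mouse 6. It was lower in IgA mice 5, 7 and 8. There the ITPK1-WT libraries had 1200000, 1000000 and 657000 cells, and the ITPK1-KO libraries 1670000, 1500000 and 955000. The part of cell number in the IgA effect was not tested. ITPK1-WT and ITPK1-KO cells carried different tracking dyes (violet and yellow CellTrace), and the effect of the dye cannot be told apart from that of the genotype. Each background came from 1 transduced pool, and p-values cover the spread between mice, not between pools. The edgeR p-values use a spread that is partly shared over all genes or sgRNAs. The SE come from the mice for 1 gene or sgRNA alone, so SE and p need not rank results alike. No label names a sequencing batch, but the sample numbers in the read-file names run in 2 series, inferred here to be 2 sequencing sheets, with mice 1 to 5 in one and mice 6 to 8 and both baselines in the other. Under that inference IgA mouse 5 was the only IgA mouse on the sheet of the vehicle mice. Values with mouse 5 as the only IgA mouse have no replicate in that arm and assume that it varies like the other mice, and they are given without a p. Within 1 background, a fit with the inferred sheet as a covariate rests on the same mouse for its IgA effect. Its values are given without a p too. An sgRNA level is a share of its library, so a lower level means fewer carriers relative to the other sgRNAs, and lower survival cannot be told apart from slower growth.

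In ITPK1-KO cells, sgRNAs against Ripk1 were lower in every IgA-treated mouse than in every vehicle mouse. Summed over the 3 sgRNAs and scaled by TMM factors, their level in vehicle mice 1 to 4 was 13545, 13054, 12469 and 13191 normalised CPM (reads per 1e+06 sgRNA reads), a mean of 13065 ± 448 (SD, n = 4). In IgA mice 5 to 8 it was 10847, 10732, 11254 and 10851 CPM, a mean of 10921 ± 229 (SD, n = 4). The arms did not overlap, and 6.58% of genes were separated in this direction in this background. The log2 fold change was −0.26 (SE 0.029, 95% interval −0.31 to −0.21, adjusted p = 5.35e-08, edgeR's quasi-likelihood test with Benjamini-Hochberg adjustment over 76 genes), and 13.2% of genes passed the same test at an adjusted p under 0.05; 5.26% of all genes passed downward. It was the lowest fold change of the 76 genes. An exact two-sided permutation test over the 70 ways to divide 8 mice gave p = 0.0286, the smallest it can give, or 0.0429 after adjustment over 3 such tests.

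In ITPK1-WT cells the same sgRNAs moved by less. Vehicle mice 1 to 4 had 11973, 11858, 12148 and 12153 CPM, a mean of 12033 ± 143 (SD, n = 4), and IgA mice 5 to 8 had 12110, 11331, 11275 and 11330 CPM, a mean of 11511 ± 400 (SD, n = 4). Mouse 5 lay within the vehicle range and the other 3 IgA mice below it, so the arms overlapped, whereas they did not for 34.2% of genes. The log2 fold change was −0.072 (SE 0.026, 95% interval −0.12 to −0.029, edgeR adjusted p = 0.0116), in a comparison where 36.8% of genes passed. This call ended when libraries were scaled to the non-targeting sgRNAs (−0.020, edgeR adjusted p = 0.492) and when mouse 7 was left out (−0.065, edgeR adjusted p = 0.0528). The value was −0.0044 with the inferred sheet as a covariate and −0.0043 with mouse 5 as the only IgA mouse. Both rest on mouse 5 for the IgA effect. The exact permutation test gave p = 0.0857, also after adjustment. In ITPK1-KO cells the value with mouse 5 as the only IgA mouse was −0.28. With the inferred sheet as a covariate, which rests on the same mouse, it was −0.27.

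**Figure D1:**
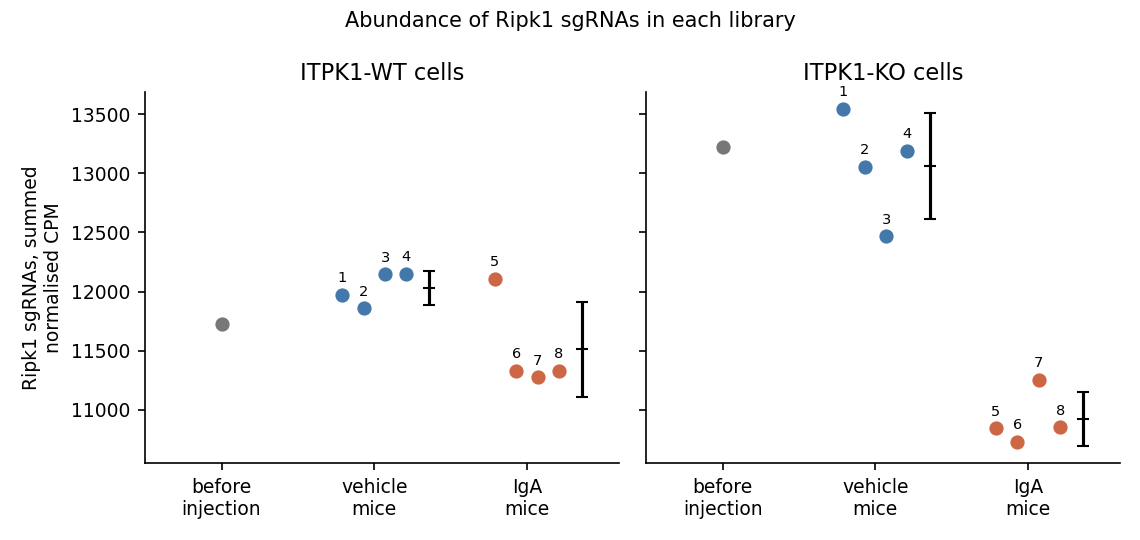
Summed level of the 3 Ripk1 sgRNAs in each of the 18 libraries, in normalised CPM, on an axis that does not start at 0; points are libraries, numbers are mice, and bars are the mean ± SD of 4 mice. The ITPK1-KO IgA mice (10732 to 11254 CPM) lie below all ITPK1-KO vehicle mice (12469 to 13545 CPM), while ITPK1-WT IgA mouse 5 (12110 CPM) lies among the ITPK1-WT vehicle mice.

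The IgA effect on Ripk1 sgRNAs was more negative in cells lacking ITPK1 than in ITPK1-WT cells. The difference of the log2 fold changes was −0.19 (SE 0.044, 95% interval −0.26 to −0.13, edgeR adjusted p = 5.86e-06 in a joint fit of 16 libraries). With mouse 5 as the only IgA mouse it was −0.28. In this test 6.58% of genes passed, and Ripk1 was number 3 of 76 from the most negative. Both populations came from the same mouse, so the comparison can be read within each animal. The ITPK1-KO level minus the ITPK1-WT level, on a log2 scale, was 0.18, 0.14, 0.038 and 0.12 in vehicle mice 1 to 4 and −0.16, −0.078, −0.0026 and −0.062 in IgA mice 5 to 8. All vehicle mice were above 0 and all IgA mice below it; the IgA mice lay below all vehicle mice, at whatever sign, for 6.58% of genes. The exact permutation test on these 8 differences gave p = 0.0286 (adjusted 0.0429), the smallest possible. The cells before injection had a difference of 0.17, close to vehicle mouse 1.

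**Figure D2:**
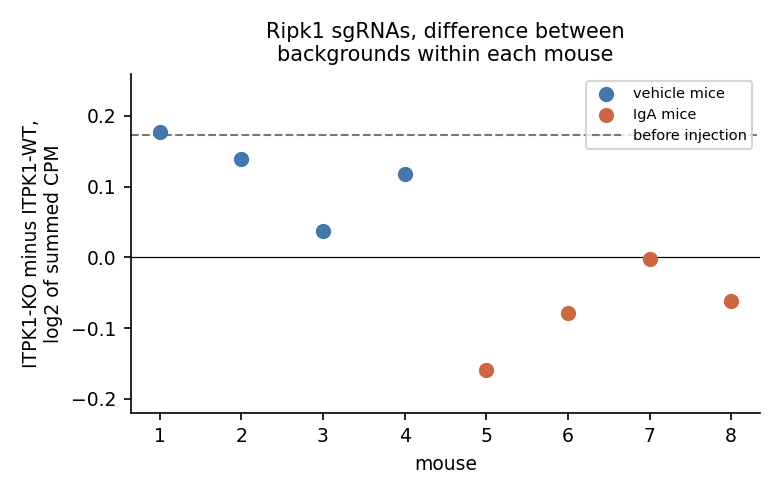
Difference of the summed Ripk1 sgRNA level between ITPK1-KO and ITPK1-WT cells of the same mouse, in log2 units; each point is 1 mouse and the dashed line is the pair of libraries before injection (0.17). Vehicle mice lie between 0.038 and 0.18 and IgA mice between −0.16 and −0.0026.

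The sign of the genotype difference thus depended on the arm. In vehicle mice Ripk1 sgRNAs stood 0.12 higher in ITPK1-KO cells on the log2 scale (SE 0.030, edgeR adjusted p = 1.39e-05), number 72 of 76 from the lowest. Genotype differences were common there: 47.4% of genes passed. In IgA mice they stood lower in ITPK1-KO cells by a log2 difference of −0.073 (SE 0.032, edgeR adjusted p = 0.00594), where 44.7% of genes passed. Without mouse 5 that difference was −0.049 (edgeR adjusted p = 0.0943), and with mouse 5 as the only IgA mouse −0.17. The transduced pools differed before injection, so these 2 values hold both the starting composition and what followed.

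Set against the average non-targeting sgRNA of the same library, the mean Ripk1 sgRNA before injection stood at 68.6% with ITPK1 and 79.0% without it. In vehicle mice it stood at 71.3% ± 0.822 and 76.9% ± 2.64 (SD, n = 4 each). In IgA mice ITPK1-WT cells had 70.4% ± 2.08 and ITPK1-KO cells 65.0% ± 1.56. On this scale the ITPK1-KO IgA mice had the lowest level of all 6 conditions, and the ITPK1-WT conditions lay within 3 percentage points of each other. In order of summed CPM among the 76 genes, from the highest, Ripk1 was number 31 in ITPK1-KO cells before injection, 29 in vehicle mice and 51 in IgA mice, while in ITPK1-WT cells it was 38, 36 and 41. Over the 6 conditions the CPM levels ran, from high to low, ITPK1-KO baseline (13220), ITPK1-KO vehicle, ITPK1-WT vehicle, ITPK1-WT baseline (11728), ITPK1-WT IgA and ITPK1-KO IgA. The neighbours ITPK1-KO baseline and vehicle, and ITPK1-WT baseline and IgA, lay within 1 SD of each other.

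Change relative to the cells before injection was computed per sgRNA against the non-targeting median and averaged over the 3; with 1 baseline library per background it carries no test. In vehicle mice ITPK1-WT cells had a value of 0.060 ± 0.012 and ITPK1-KO cells one of −0.032 ± 0.041 (log2, SD, n = 4), where the medians of all genes were 0.029 and −0.022. In IgA mice the value was 0.033 ± 0.032 in ITPK1-WT cells against a median of 0.076, and −0.29 ± 0.038 in ITPK1-KO cells against a median of −0.0029. The last was number 3 of 76 genes from the most negative. Set against the same starting cells, the 4 ITPK1-KO IgA mice lay between −0.32 and −0.24. The 4 ITPK1-KO vehicle mice lay between −0.080 and 0.019. Both arms were set against 1 shared baseline library, so this gap is not separate from the arm difference given above.

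The 3 sgRNAs moved the same way in ITPK1-KO cells. sg-1 had 3400, 3238, 3230 and 3420 CPM in vehicle mice 1 to 4 and 2737, 2464, 2799 and 2536 CPM in IgA mice 5 to 8. sg-2 had 5191, 4951, 4423 and 4988 CPM in vehicle mice and 4000, 4237, 4152 and 3973 CPM in IgA mice. sg-3 had 4954, 4865, 4816 and 4783 CPM in vehicle mice and 4110, 4031, 4304 and 4342 CPM in IgA mice. For each of the 3 the highest IgA mouse was below the lowest vehicle mouse, a separation in that direction seen for 5.58% of sgRNAs. The log2 fold changes were −0.33 (SE 0.049) for sg-1, −0.26 (SE 0.054) for sg-2 and −0.21 (SE 0.028) for sg-3, with edgeR adjusted p = 2.60e-12, 1.43e-12 and 2.45e-08 over 251 sgRNAs. In this comparison 10.4% of sgRNAs passed, and the 3 for Ripk1 were numbers 2, 6 and 11 from the lowest. None of the 24 non-targeting sgRNAs, which ranged from −0.17 to 0.10 with a median of −0.012, lay below any of them.

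In ITPK1-WT cells all 3 fold changes were negative and only that of sg-1 passed. sg-1 had 2838, 2978, 3113 and 2994 CPM in vehicle mice 1 to 4 and 2725, 2760, 2515 and 2518 CPM in IgA mice 5 to 8, a log2 fold change of −0.18 (SE 0.045, edgeR adjusted p = 0.00297). Its IgA mice lay below all vehicle mice, as for 10.3% of sgRNAs, and 27.8% of the 252 sgRNAs passed the test. With the inferred sheet as a covariate, where the IgA effect rests on mouse 5, the value was −0.14. sg-2 ran from 4318 to 4498 CPM in vehicle mice and from 4150 to 4583 CPM in IgA mice, a log2 fold change of −0.041 (SE 0.034, edgeR adjusted p = 0.388). sg-3 ran from 4562 to 4684 CPM in vehicle mice and from 4417 to 4801 CPM in IgA mice, a log2 fold change of −0.035 (SE 0.030, edgeR adjusted p = 0.433). For both, 1 IgA mouse lay above the vehicle mice, 1 among them and 2 below. The non-targeting sgRNAs had a median of −0.059 here (range −0.21 to 0.16); 1 lay below sg-1, 15 below sg-2 and 16 below sg-3. Of these 24 controls 8 passed downward and 1 upward in ITPK1-WT cells, against 1 downward and 0 upward in ITPK1-KO cells.

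**Figure D3:**
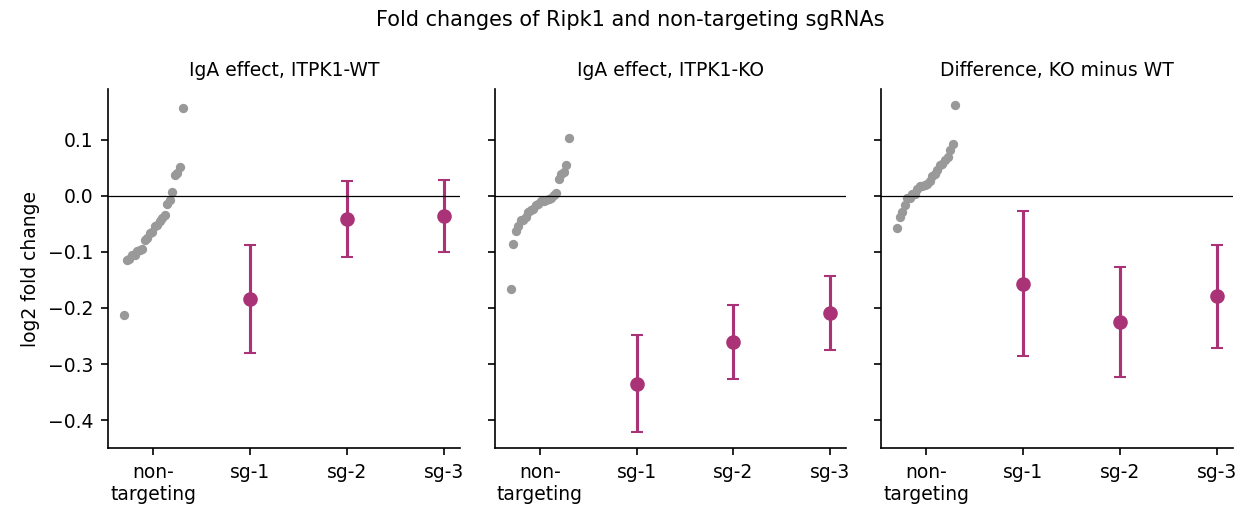
Log2 fold changes of the 3 Ripk1 sgRNAs (points with 95% intervals from the edgeR fit) and of the 24 non-targeting sgRNAs (grey, sorted by value) for the IgA effect in each background and for the difference between backgrounds. All 3 Ripk1 sgRNAs lie below every non-targeting sgRNA in ITPK1-KO cells (−0.33, −0.26 and −0.21 against a lowest of −0.17). They lie within the non-targeting range in ITPK1-WT cells. In the difference they also lie below every non-targeting sgRNA, the lowest of which is −0.058. There sg-2, sg-3 and sg-1 are numbers 10, 13 and 15 of 252 sgRNAs from the lowest, so sgRNAs of other genes lie below the controls too.

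The difference between backgrounds passed for 2 of the 3 sgRNAs. It was −0.23 for sg-2 (SE 0.066, edgeR adjusted p = 0.000617), −0.18 for sg-3 (SE 0.042, edgeR adjusted p = 0.00589) and −0.16 for sg-1 (SE 0.079, edgeR adjusted p = 0.244); 3.97% of sgRNAs passed. sg-1, with the largest ITPK1-KO fold change, was also the one that passed in ITPK1-WT cells, and the 95% interval of its difference, −0.29 to −0.027, covered the values of the other two. The value for sg-1 was −0.098 without mouse 6 and −0.21 without mouse 7, and did not pass in either case (edgeR adjusted p = 0.479 and 0.0868). The call for sg-3 did not pass without mouse 5 (−0.15, edgeR adjusted p = 0.0931). Between genotypes, sg-1 and sg-2 stood higher in ITPK1-KO cells of vehicle mice (0.16 and 0.15, edgeR adjusted p = 0.00342 and 0.000208), where 31.7% of sgRNAs passed, and sg-3 gave 0.063 (edgeR adjusted p = 0.136). Without mouse 1 the value for sg-1 was 0.13 (edgeR adjusted p = 0.0708). In IgA mice only sg-3 of the 3 passed (−0.12, edgeR adjusted p = 0.00269; 34.9% of sgRNAs passed), and it did not without mouse 5 (−0.085, edgeR adjusted p = 0.0801). There sg-2 gave −0.074 (edgeR adjusted p = 0.0888) and sg-1 gave 0.0014 (edgeR adjusted p = 0.980).

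Whether the sgRNAs moved by different amounts was asked with the ratio of 2 sgRNAs within a library, which needs no scaling between libraries. In ITPK1-WT cells the log2 ratio of sg-1 to sg-2 was lower in IgA than in vehicle mice by a difference of −0.15, and that of sg-1 to sg-3 by −0.16, each with an exact permutation p = 0.0571 (adjusted 0.114 over 6 ratios). In ITPK1-KO cells the differences for sg-1 were −0.081 against sg-2 (exact permutation p = 0.314, adjusted 0.471) and −0.13 against sg-3 (exact permutation p = 0.0571, adjusted 0.114). The ratio of sg-2 to sg-3 differed by −0.0055 in ITPK1-WT cells (exact permutation p = 0.83) and by −0.045 in ITPK1-KO cells (exact permutation p = 0.514, adjusted 0.617). No ratio passed, and the design left little room to: a single ratio at the smallest p of 0.0286 adjusts to 0.171, and 4 of the 6 would have to reach it to pass. Over the 16 recovered libraries, with the mean of each background removed, the pairs correlated at r = 0.76 (sg-1 and sg-2), 0.81 (sg-1 and sg-3) and 0.84 (sg-2 and sg-3); the libraries share the arms, so these values describe the arm difference too.

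The authors' deposited table of sgRNA statistics from MAGeCK gave for ITPK1-KO cells log2 fold changes of −0.32 for sg-1, −0.26 for sg-2 and −0.19 for sg-3, with false discovery rates of 0.00184, 0.00184 and 0.0481. All 3 were among the 12 of 252 sgRNAs (4.76%) under 0.05 in the authors' deposited table. In the authors' deposited table for ITPK1-WT cells they were −0.13, 0.048 and 0.046, each with a false discovery rate of 0.998. That table called 0 of 252 sgRNAs (0%) at a false discovery rate under 0.05 and listed 4 with an unadjusted p under 0.05. Its non-targeting sgRNAs had a median of −0.00013, against −0.059 in the edgeR fit. The edgeR fit called 70 sgRNAs there, 76 with scaling to the non-targeting sgRNAs, 45 without mouse 7 and 94 without mouse 6. With that scaling sg-1, sg-2 and sg-3 gave −0.13, 0.011 and 0.017. What sets the calls of the 2 methods apart was not tested.

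Of 37 other genes fixed as members of the RIPK1 pathway, the library targeted 14. In ITPK1-WT cells 4 rose with IgA, 2 fell and 8 did not pass (42.9% called, against 36.8% of all genes), with a median log2 fold change of 0.0075 against −0.0033 for all genes. In ITPK1-KO cells 1 rose, 0 fell and 13 did not pass (7.14% called, against 13.2% of all genes), with a median of 0.015 against 0.0071. Downward calls were few among all genes there too, 4 of 76 (5.26%) with Ripk1 among them. With scaling to the non-targeting sgRNAs 8 rose and 1 fell in ITPK1-WT cells, and 4 rose and 0 fell in ITPK1-KO cells. No count is given for the settings where the IgA effect rests on mouse 5 alone.

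Among the receptors, Tnfrsf1a, which encodes tumor necrosis factor receptor 1, rose by 0.061 in ITPK1-WT cells (SE 0.016, edgeR adjusted p = 0.0280) and gave 0.058 in ITPK1-KO cells (SE 0.027, edgeR adjusted p = 0.123). Tnfrsf1b, Fas, Tnfrsf10b and Tnfrsf25 did not pass in either background and lay between −0.017 and 0.058. In the receptor complex, Cyld, the deubiquitinase that trims chains on RIPK1, rose in both backgrounds, by 0.13 in ITPK1-WT cells (SE 0.024, edgeR adjusted p = 0.000202) and by 0.19 in ITPK1-KO cells (SE 0.025, edgeR adjusted p = 3.34e-06). Cyld sgRNAs therefore moved opposite to those against Ripk1; with mouse 5 as the only IgA mouse the values were 0.12 and 0.14. Spata2, which brings CYLD to the receptor complex, rose by 0.12 in ITPK1-WT cells (SE 0.037, edgeR adjusted p = 0.0126) and gave 0.052 in ITPK1-KO cells (SE 0.029, edgeR adjusted p = 0.267). Birc2, which encodes the ubiquitin ligase cIAP1, gave −0.045 and −0.018 and did not pass.

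In the death complex, the adaptor Fadd fell by 0.14 in ITPK1-WT cells (SE 0.019, edgeR adjusted p = 0.000309) and gave −0.038 in ITPK1-KO cells (SE 0.041, edgeR adjusted p = 0.460). Casp8, the initiator protease of that complex, gave −0.032 and −0.0039 in the same order and did not pass (edgeR adjusted p = 0.181 and 0.904). In the necroptosis arm, Ripk3, the kinase that RIPK1 activates, rose by 0.082 in ITPK1-WT cells (SE 0.026, edgeR adjusted p = 0.0123) and gave 0.058 in ITPK1-KO cells (SE 0.032, edgeR adjusted p = 0.138). Its substrate Mlkl, the executioner, gave −0.0063 and 0.013 and did not pass, nor did the phosphatase Pgam5 (0.052 and 0.016). Zbp1, a nucleic acid sensor that binds RIPK3, fell by 0.083 in ITPK1-WT cells (SE 0.016, edgeR adjusted p = 0.000798) and gave 0.013 in ITPK1-KO cells (SE 0.021, edgeR adjusted p = 0.657). The Zbp1 call in ITPK1-WT cells ended with scaling to the non-targeting sgRNAs (−0.031, edgeR adjusted p = 0.169). With the inferred sheet as a covariate, the IgA effect rests on mouse 5. The 6 genes called in ITPK1-WT cells then gave 0.12 (Cyld), 0.11 (Spata2), 0.076 (Ripk3), 0.066 (Tnfrsf1a), −0.15 (Fadd) and −0.084 (Zbp1).

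The difference between backgrounds passed for 1 of the 14, Zbp1, at 0.090 (SE 0.028, edgeR adjusted p = 0.0155), of opposite sign to that of Ripk1. That is 7.14% of the list, against 6.58% of all genes. With scaling to the non-targeting sgRNAs 0 of the 14 passed (Zbp1 0.059, edgeR adjusted p = 0.190). The values for Cyld (0.054, edgeR adjusted p = 0.534), Ripk3 (−0.029, edgeR adjusted p = 0.740), Fadd (0.097, edgeR adjusted p = 0.325) and Casp8 (0.023, edgeR adjusted p = 0.733) did not pass. The median of the list was 0.017, against 0.0083 for all genes.

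**Figure D4:**
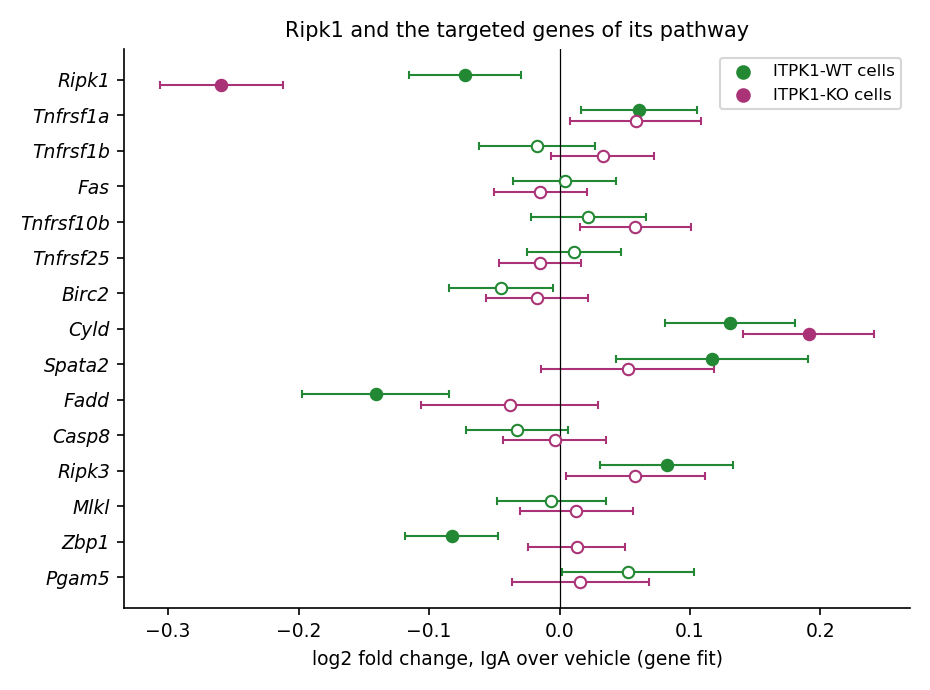
Log2 fold change between IgA and vehicle mice for Ripk1 and the 14 targeted genes of its pathway, from the edgeR gene fit in ITPK1-WT (green) and ITPK1-KO (purple) cells; bars are 95% intervals and filled points passed an adjusted p under 0.05. Ripk1 in ITPK1-KO cells (−0.26) is the leftmost point, and Cyld in ITPK1-KO cells (0.19) the rightmost.

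The genes whose level followed that of Ripk1 most closely were Tmem57, Hoxa3 and Eif5b, with Pearson r of 0.89, 0.74 and 0.64 over the 16 recovered libraries after the mean of each background was removed. With the mean of each arm removed as well, r was 0.21, 0.067 and 0.26, so the likeness lay mostly between the arms and not among mice of an arm. Tmem57 fell by 0.096 in ITPK1-WT cells (SE 0.024, edgeR adjusted p = 0.00454) and by 0.17 in ITPK1-KO cells (SE 0.017, edgeR adjusted p = 6.27e-07). Its difference between backgrounds did not pass (−0.084, edgeR adjusted p = 0.131). Hoxa3 gave −0.032 and fell by 0.061 in the same order (edgeR adjusted p = 0.154 and 0.0178), and Eif5b gave −0.078 and −0.14 without passing (edgeR adjusted p = 0.425 and 0.123). For Itpk1 itself, the gene already disrupted in the ITPK1-KO cells, the difference between backgrounds was −0.48 (SE 0.051, edgeR adjusted p = 8.88e-11): its sgRNAs rose by 0.45 with IgA in ITPK1-WT cells (SE 0.053, edgeR adjusted p = 1.83e-07) and gave −0.023 in ITPK1-KO cells (SE 0.018, edgeR adjusted p = 0.454).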

How the data were processed

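Genomic DNA from sorted Ba/F3 cells was lysed, sgRNA cassettes were amplified with barcoded primers, and reads were counted per sgRNA, per the labels' protocols. The deposited table holds raw read counts per sgRNA for 18 libraries; per the series' design text, sgRNAs were picked with CRISPick and reads with mismatches to the library were dropped. The aligner and its settings were not given in any source used here. Per sgRNA, the authors deposited log2 fold changes, p-values and false discovery rates from MAGeCK RRA 0.5.6, per the file headers and the series' design text. The arm of each mouse came from the deposited sample legend. The 4 columns that join values of several samples were not used.

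The tests were edgeR's quasi-likelihood tests (edgeR 4.0.16, R 4.3.3) on counts summed over the 3 sgRNAs of each of 76 genes, and per sgRNA with a mean of at least 10 reads. TMM factors came from the sgRNA table, and p-values were adjusted by Benjamini-Hochberg over all genes or sgRNAs tested. SE come from log2 levels per mouse without a prior count, and 95% intervals from the fit. Change from baseline used 0.5 added reads. limma 3.58.1 (prior count 2) and DESeq2 1.42.0 served as alternatives. The edgeR gene fits were tested on simulated counts with the same spread for all sgRNAs. The simulation held no effect of mouse or sheet and no shift of the non-targeting sgRNAs, so it does not cover these.

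Both backgrounds of a mouse come from the same animal, which pairs them; their deviations from group means correlated at −0.083 to 0.26 over 238 sgRNAs. Replicates differed beyond counting error (chi-square per degree of freedom 2.24 to 5.62). Ripk1 and its sgRNAs were described in full, with every targeted pathway member and the 3 genes of highest correlation; members, lists and tests were chosen with earlier results of these data known.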

Additional observations from a re-analysis of the deposited data

Results flagged for a closer look

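In ITPK1-WT cells of IgA mice, the summed Ripk1 level of mouse 5 (12110 CPM) stood apart from the other 3 mice (11275 to 11331 CPM): the gap to the nearest was 0.932 of the whole range, above Dixon's 95% critical value for 4 samples. Of 16 groups of 4 examined it was the only one; chance flags about 1 in 20 groups. Mouse 5 is also the only IgA mouse whose read files are numbered in one series with those of the vehicle mice, inferred to be a shared sequencing sheet that no label names. The part of such a sheet in its value was not tested.

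The IgA effect on Ripk1 differed between ITPK1 backgrounds in the test of the difference itself, by −0.19 for the gene, −0.23 for sg-2 and −0.18 for sg-3 (log2, ITPK1-KO minus ITPK1-WT).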

How the results depend on the processing

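For the Ripk1 gene, the IgA effect in ITPK1-KO cells ran from −0.28 to −0.24 over 11 alternatives. Without each mouse in turn it ran from −0.28 to −0.25. In the same order, the difference between backgrounds ran from −0.28 to −0.18 and from −0.22 to −0.17. The vehicle-mouse genotype difference ran from 0.11 to 0.13 and from 0.10 to 0.14. These comparisons passed in every setting, leaving aside those where the IgA effect rests on mouse 5 alone. The effect in ITPK1-WT cells passed under 8 of 11 alternatives, but not with non-targeting scaling (−0.020). With the inferred sheet as covariate it was −0.0044, and with mouse 5 as the only IgA mouse −0.0043. Those values rest on 1 IgA mouse, assumed to vary like the others. Leaving out each mouse gave −0.094 to −0.059, not passing without mouse 7. The genotype difference in IgA mice missed with limma (−0.065, adjusted p = 0.0589), and leaving out each mouse gave −0.10 to −0.049. With the mouse as a replicate block, the 3 comparisons between backgrounds gave −0.19, 0.12 and −0.074 for the gene, and no Ripk1 gene or sgRNA call changed.

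In ITPK1-WT cells sg-1 gave −0.14 both with the sheet and with mouse 5 alone. There sg-2 changed sign under non-targeting scaling, the sheet and mouse 5 alone (0.011, 0.040 and 0.040), as did sg-3 (0.017, 0.036 and 0.036). The genotype difference of sg-1 in IgA mice was near 0 and changed sign under non-targeting scaling (−0.039), a minimum mean of 500 reads (−0.0049), the sheet (−6.60e-06) and the replicate block (−0.00057), and ran from −0.056 to 0.057 without each mouse. That of sg-2 passed with non-targeting scaling (−0.12) and was −0.20 with mouse 5 alone. Without each mouse it ran from −0.12 to −0.039, and that of sg-3 from −0.15 to −0.085. Without each mouse, the difference between backgrounds ran from −0.21 to −0.15 for sg-3 and from −0.21 to −0.098 for sg-1, the vehicle-mouse difference of sg-1 from 0.13 to 0.19, and the ITPK1-WT ratio of sg-2 to sg-3 from −0.023 to 0.010. With all sgRNAs as reference, the ITPK1-WT change from baseline was 0.041 in vehicle and −0.049 in IgA mice. With the means of each background and arm subtracted, r was 0.21 for Tmem57, 0.067 for Hoxa3 and 0.26 for Eif5b. The pathway list had 6 calls in ITPK1-WT cells. No count is given there for 2 settings, the sheet and mouse 5 alone, because both rest on 1 IgA mouse. With mouse 5 alone the 6 genes gave 0.12 (Cyld), 0.11 (Spata2), 0.076 (Ripk3), 0.067 (Tnfrsf1a), −0.15 (Fadd) and −0.084 (Zbp1). With non-targeting scaling the list had 4 calls in ITPK1-KO cells, against 1, and 0 in the difference, against 1. The difference for Zbp1 was 0.10 with mouse 5 alone. The sheet, mouse 5, DESeq2 and total-count alternatives of the pathway list were added after seeing the data.

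Over all genes, calls in ITPK1-WT cells numbered 17 without mouse 7 and 32 without mouse 6, against 28. sgRNA calls there numbered 45 and 94 in the same order, against 70, and in the difference 17 without mouse 6, against 10. No count is given where the IgA effect rests on mouse 5 alone. Non-targeting scaling moved the share of higher calls from 57.1% to 94.4% in ITPK1-WT cells, from 60% to 78.6% in ITPK1-KO cells, from 40% to 20% in the difference, and between genotypes from 47.2% to 35.5% in vehicle and from 44.1% to 16.7% in IgA mice. The causes were not tested. The fits with fewer mice test fewer samples.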
